A study of Mus musculus with 14 samples.

Results

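In bulk tissue, 8 genes used as markers of subplate neurons were measured: Nr4a2, Nfe2l3, Hs3st4, Nxph4, Ccn2, Cplx3, Tmem163 and Lpar1. They were taken by symbol from the 56941 gene IDs of the deposited tables. Subplate neurons are among the earliest-born neurons of the cerebral cortex and lie beneath the cortical plate, where they guide ingrowing thalamic axons and receive some of the first synapses of the cortex. Many are lost after birth, and the survivors form layer 6b. Their marker genes span a nuclear receptor, a stress-response type transcription factor, an enzyme that modifies heparan sulfate, secreted proteins, a synaptic protein, a zinc transporter and a lipid receptor, and each is also used by other cells of the embryonic brain.

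The 14 libraries came from mouse embryos. At E12.5 (E, day of gestation) the telencephalon was sampled, with 3 libraries from embryos with floxed Sbno1 and Trp53 alleles (ff) and 3 from double conditional knockouts (dcKO), in which the same floxed alleles met the Emx1-Cre driver. At E18.5 the cerebral cortex was sampled, with 4 libraries of each genotype. Emx1-Cre acts in dorsal telencephalic progenitors and their descendants, so cells of other origin in a library keep both genes. No group carried the driver alone or only 1 of the deletions, and the floxed exons are not given, so the driver, the loss of Sbno1 and the loss of Trp53 cannot be told apart. The labels do not say whether libraries of a group came from separate embryos or litters, and p-values therefore measure the spread between these libraries. Libraries are named here by the number in their column names. In 11 of 14 samples the description names a library column of another genotype or stage than the title does, and groups here follow the column names and the stage of the table.

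Depth ranged from 42.0 to 67.4 M expected counts at E12.5, apart from ff library 9 with 4.92 M. It ranged from 48.6 to 81.96 M at E18.5, apart from library 2, labelled dcKO, with 5.98 M. By Xist and chromosome Y counts each dcKO library was male, and females were found among ff libraries alone (1 of 3 at the early stage, 2 of 4 at the late one). The choroid plexus transcript Ttr was all but absent from E18.5 library 12, labelled dcKO, at 1.82 TPM (a relative abundance scaled for transcript length), where the remaining libraries of that stage held 1401 to 3203 TPM. The counts of Sbno1 were lower in dcKO telencephalon, from 106 ± 9.29 to 70.2 ± 5.77 counts per 1000000 (CPM; SD, n = 3 each), just outside the threshold (edgeR adjusted p = 0.0505). In E18.5 cortex they stood at 73.6 ± 1.31 CPM without and 72.4 ± 4.24 CPM with the label dcKO (SD, n = 4 each; edgeR adjusted p = 0.682), so the E18.5 groups are called by their labels. Trp53, the other deleted gene, went from 75.0 ± 2.53 to 65.0 ± 6.25 CPM at E18.5 (SD, n = 4 each), a log2 difference of -0.20 (edgeR adjusted p = 0.0319). At E12.5 it stood at 123 ± 15.4 and 106 ± 2.32 CPM (SD, n = 3 each; -0.23, edgeR adjusted p = 0.218). Emx1 fell at both stages (log2 difference -0.96 at E12.5, adjusted p = 0.00833, and -0.81 at E18.5, adjusted p = 8.31e-06, both in edgeR). The diencephalic markers Tcf7l2, Lhx9, Gbx2, Lef1 and Rora summed to 218 to 370 TPM in ff and 311 to 345 TPM in dcKO at E12.5, so the tissue labelled telencephalon also held diencephalic transcripts.

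The promoters of the 3 markers that were lower in E18.5 libraries labelled dcKO without overlap in TPM, and also fell in counts, are shown first. The sequences are the 250 bases before the start site in RefSeq, build GRCm38.p6, read in the direction of the gene. RefSeq's table held a window for 6 of the 8 markers, without Ccn2 and Nxph4. Capitals mark letters of the motifs searched, on either strand.

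Nr4a2, chr2:57124004-57124253, minus strand: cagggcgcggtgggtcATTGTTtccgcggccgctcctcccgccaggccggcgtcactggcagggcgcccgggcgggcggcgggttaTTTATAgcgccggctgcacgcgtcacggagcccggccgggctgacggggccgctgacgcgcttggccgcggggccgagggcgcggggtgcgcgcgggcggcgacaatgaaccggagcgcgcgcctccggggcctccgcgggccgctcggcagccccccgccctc
Nfe2l3, chr6:51432419-51432668, plus strand: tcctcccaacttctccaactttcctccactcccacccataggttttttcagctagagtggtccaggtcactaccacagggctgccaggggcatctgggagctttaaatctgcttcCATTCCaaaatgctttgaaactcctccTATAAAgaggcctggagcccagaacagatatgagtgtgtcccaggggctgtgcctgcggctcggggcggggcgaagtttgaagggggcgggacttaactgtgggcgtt
Hs3st4, chr7:123982578-123982827, plus strand: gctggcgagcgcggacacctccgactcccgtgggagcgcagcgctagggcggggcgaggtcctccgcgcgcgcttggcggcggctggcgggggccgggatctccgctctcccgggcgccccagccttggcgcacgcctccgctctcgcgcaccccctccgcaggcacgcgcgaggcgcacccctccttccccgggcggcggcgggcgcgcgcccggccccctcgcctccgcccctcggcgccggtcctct

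The letters searched were CATTCC (TEAD), AACAAT (SOX), AAAGGTCA (the NR4A monomer site), AGGTGTGA (T-box factors), TTGGCA (nuclear factor I), TGACGTCA (the cyclic AMP response element) and TATAAA (the TATA box), on both strands. They did not overlap one another in these windows. The Nr4a2 window held the SOX letters at position -234 and the TATA letters at -164, both on the minus strand relative to the gene, counted back from the start site. The Nfe2l3 window held the TEAD letters at -135 and the TATA letters at -108, both on the gene's own strand. None of the 7 motifs was in the Hs3st4 window, so no motif was shared by all 3 promoters. Among all 32851 promoter windows of 300 bases, 10.72% held the SOX letters, 13.62% the TATA letters and 14.66% the TEAD letters. The other motifs were in 1.507% (NR4A), 1.275% (T-box), 14.12% (nuclear factor I) and 1.79% (cyclic AMP response element) of windows, and in none of the 3 shown. The Nr4a2 and Hs3st4 windows were 80% and 82% G and C, the Nfe2l3 window 55.2%. A match here describes letters only.

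The first comparison set the E18.5 cortex libraries labelled dcKO against ff. Nr4a2, Nfe2l3 and Hs3st4 fell, to between 0.40 and 0.62 of the ff level in counts, and in each the groups did not overlap. Tmem163 also fell, by far less, and Lpar1 rose. Nxph4 and Ccn2 did not pass the test, and Cplx3 was removed by the filter on low counts. Of 7 markers tested, 4 fell and 1 rose at an adjusted p under 0.05 (edgeR). Over all 17974 genes tested 32.2% passed, 16.6% lower and 15.6% higher. The median log2 difference was -0.23 over the markers tested and 0.03 over all genes tested. Libraries are of bulk tissue, in which fewer cells of a type and less RNA per cell cannot be told apart.

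Nr4a2 (ENSMUSG00000026826.14; also Nurr1) encodes an orphan nuclear receptor that marks subplate and layer 6b neurons and is also needed by midbrain dopamine neurons. In TPM it stood at 45.43, 43.35, 42.31 and 34.69 in ff libraries 7, 8, 17 and 18. The libraries labelled dcKO, 2, 3, 12 and 13, held 17.95, 18.24, 22.88 and 17.83 TPM. Every ff library was above every library labelled dcKO, and the lowest ff value was that of library 18. In counts Nr4a2 went from 69.8 ± 8.43 to 29.5 ± 3.96 CPM (SD, n = 4 each), a log2 difference of -1.22 (SE 0.11, 95% interval -1.45 to -0.99, edgeR adjusted p = 1.44e-05). That made it the 95th most lowered of 17974 genes by log2 difference. At E12.5 it had not differed detectably: 21.58, 12.06 and 13.48 TPM in ff libraries 4, 7 and 9 spanned the 20.25, 18.52 and 17.86 TPM of dcKO libraries 2, 6 and 10. Across the 4 groups E18.5 ff was highest at 41.4 ± 4.69 TPM, and E18.5 labelled dcKO (19.2 ± 2.44), E12.5 dcKO (18.9 ± 1.23) and E12.5 ff (15.7 ± 5.14) lay within their spread of one another.

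Nfe2l3 (ENSMUSG00000029832.17) encodes a cap'n'collar transcription factor, a relative of the oxidative stress regulator Nfe2l2. Its TPM values at E18.5 were 15.09, 17.62, 15.37 and 15.60 in ff libraries 7, 8, 17 and 18. They were 8.36, 7.02, 6.49 and 6.76 in libraries 2, 3, 12 and 13 labelled dcKO. The groups were well apart, and the highest value labelled dcKO came from the shallow library 2. In counts the gene fell from 19.8 ± 1.27 to 8.26 ± 1.35 CPM (SD, n = 4 each), a log2 difference of -1.31 (SE 0.10, 95% interval -1.53 to -1.09, edgeR adjusted p = 3.94e-06). It was the 66th most lowered gene. Its E12.5 values were low in both genotypes, 2.89, 1.92 and 2.99 TPM in ff libraries 4, 7 and 9 and 2.01, 2.50 and 2.77 TPM in dcKO libraries 2, 6 and 10. The order of the groups was E18.5 ff (15.9 ± 1.15 TPM), E18.5 labelled dcKO (7.16 ± 0.83), and then E12.5 ff (2.60 ± 0.59) and E12.5 dcKO (2.43 ± 0.39), which overlapped.

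Hs3st4 (ENSMUSG00000078591.2) encodes a 3-O-sulfotransferase of heparan sulfate, the sugar chain that presents growth factors at the cell surface. In E18.5 ff libraries 7, 8, 17 and 18 it stood at 35.17, 39.56, 33.91 and 34.16 TPM. In libraries 2, 3, 12 and 13 labelled dcKO it stood at 22.69, 23.18, 25.59 and 24.80 TPM. The groups did not overlap, and the gap between them was wider than the range within either. In counts it fell from 60.4 ± 3.46 to 37.5 ± 1.77 CPM (SD, n = 4 each), a log2 difference of -0.68 (SE 0.06, 95% interval -0.81 to -0.55, edgeR adjusted p = 8.65e-06), and ranked 454th among lowered genes. At E12.5 the gene was at 3.42, 3.61 and 5.76 TPM in ff libraries 4, 7 and 9 and at 6.07, 4.55 and 4.19 TPM in dcKO libraries 2, 6 and 10, with overlap. E18.5 ff (35.7 ± 2.63 TPM) was above E18.5 labelled dcKO (24.1 ± 1.36), and both were above E12.5 dcKO (4.94 ± 1.00) and E12.5 ff (4.26 ± 1.30), which did not differ beyond their spread. A short antisense gene, Gm27040, overlaps exons of Hs3st4 in GENCODE M21, and the strand used for counting is not stated; its own counts averaged 0.22 CPM at E18.5.

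These 3 genes were those whose TPM values did not overlap between the E18.5 groups, all 3 lower, where 7.56% of all genes tested were lower without overlap. In an exact permutation test of log2(TPM + 1), each of the 3 reached p = 0.0286, the smallest that 4 libraries against 4 allow. Groups of 4 without overlap always give that p, so it restates the lack of overlap and adds no support. Each kept its direction and passed in 22 of 22 alternative analyses. The permutation tests of TPM are among the 22 and could not have failed. The TPM values of all genes tested were shifted by a median of 0.12 on the log2(TPM + 1) scale toward the libraries labelled dcKO. TPM differences of single markers at E18.5 are to be read against that shift.

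**Figure D1:**
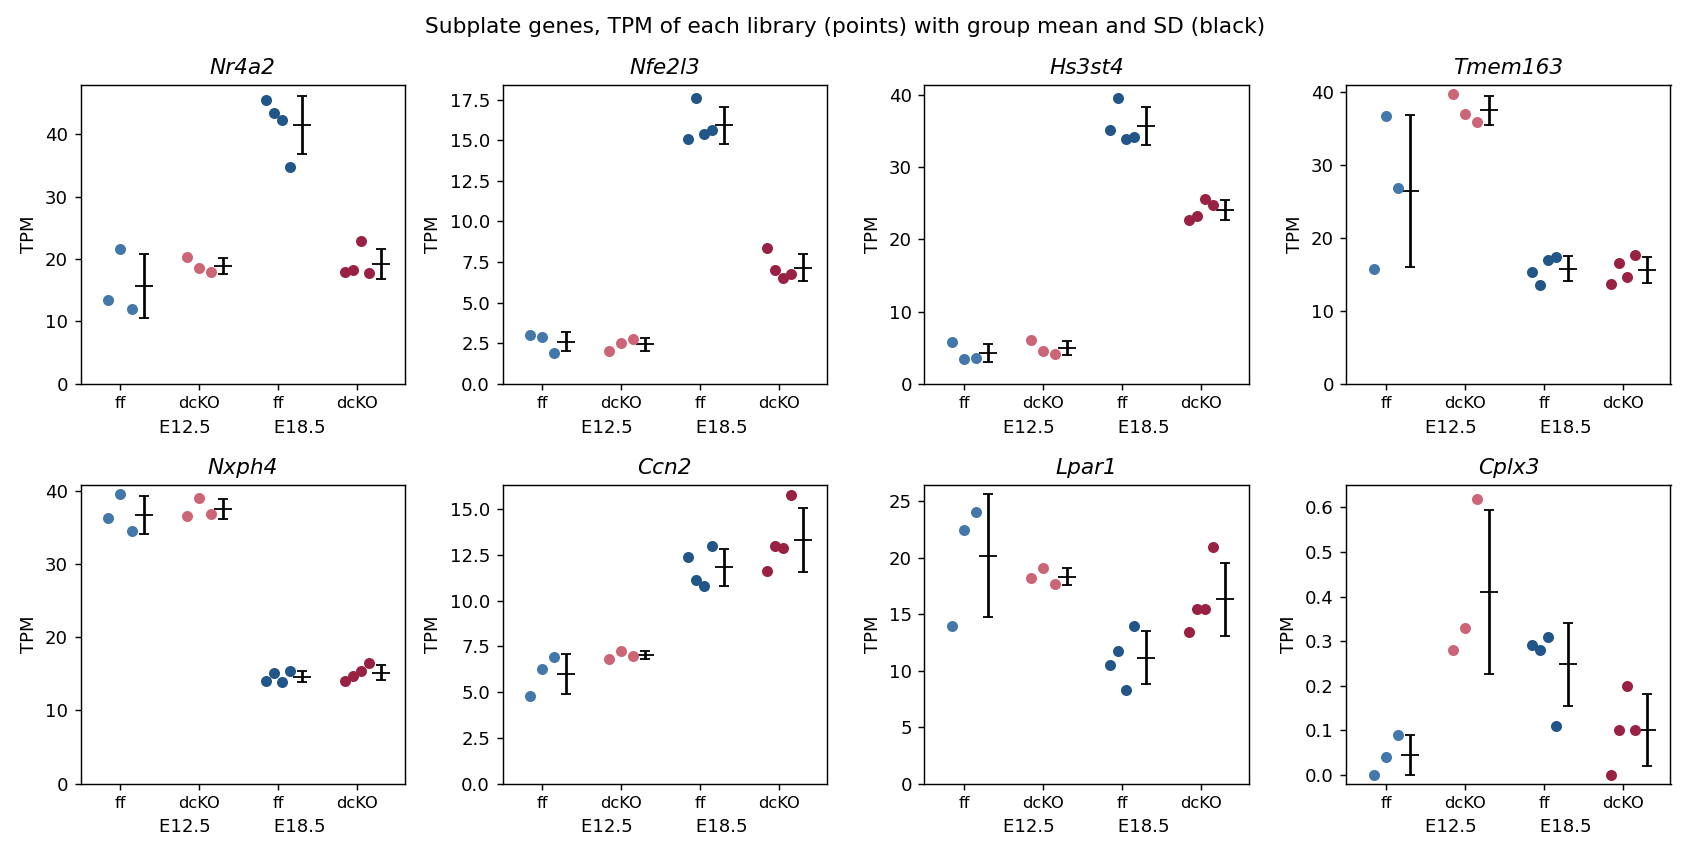
TPM of each marker in each library (points, 1 panel per gene) with the group mean and SD (black), for ff and dcKO at E12.5 (3 libraries each) and E18.5 (4 each). Nr4a2, Nfe2l3 and Hs3st4 are the panels in which the E18.5 groups are apart, and the Cplx3 axis ends below 1 TPM.

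Nxph4 (ENSMUSG00000040258.7) encodes neurexophilin 4, a secreted ligand of neurexins at synapses. In counts it had the smallest fitted genotype difference of the 7 markers tested at E18.5. Its values were 14.01, 15.06, 13.92 and 15.44 TPM in ff libraries 7, 8, 17 and 18 and 14.02, 14.77, 15.43 and 16.43 TPM in libraries 2, 3, 12 and 13 labelled dcKO. The groups overlapped almost fully. The log2 difference was -0.05 (SE 0.08, 95% interval -0.22 to 0.12, edgeR adjusted p = 0.649), so falls as large as that of Hs3st4 lie outside the interval. At E12.5 Nxph4 stood at 39.58, 34.49 and 36.25 TPM in ff libraries 4, 7 and 9 and at 36.59, 39.07 and 36.83 TPM in dcKO libraries 2, 6 and 10. Both E12.5 groups (ff 36.8 ± 2.59, dcKO 37.5 ± 1.37 TPM) were above both E18.5 groups (ff 14.6 ± 0.76, labelled dcKO 15.2 ± 1.02 TPM), and within a stage the genotypes overlapped.

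Ccn2 (ENSMUSG00000019997.12; also Ctgf) encodes a secreted matricellular protein that is a classic subplate marker and a target of the Hippo pathway effectors YAP and TEAD. In E18.5 ff libraries 7, 8, 17 and 18 it was at 12.41, 11.12, 10.80 and 12.97 TPM, and in libraries 2, 3, 12 and 13 labelled dcKO at 11.65, 13.01, 12.90 and 15.80 TPM. The groups overlapped, with library 13 the highest. The log2 difference was 0.10 (SE 0.09, 95% interval -0.10 to 0.31, edgeR adjusted p = 0.427). At E12.5 the values were 6.27, 6.93 and 4.79 TPM in ff libraries 4, 7 and 9 and 6.84, 7.26 and 6.99 TPM in dcKO libraries 2, 6 and 10. E18.5 labelled dcKO (13.3 ± 1.75 TPM) and E18.5 ff (11.8 ± 1.03) were above E12.5 dcKO (7.03 ± 0.21) and E12.5 ff (5.997 ± 1.10), and neighbours of the same stage overlapped. Endothelial cells also make Ccn2. The 6 endothelial markers summed to 112 to 184.8 TPM in E18.5 ff and 154 to 210 TPM in libraries labelled dcKO. In edgeR 1 of these 6 was higher and none lower, where 15.6% of all genes tested were higher. The part of endothelial cells in the Ccn2 level was not tested. A processed transcript on the other strand, Gm15270, overlaps Ccn2 exons and averaged 0.65 CPM at E18.5.

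Tmem163 (ENSMUSG00000026347.14) encodes a zinc transporter of vesicle membranes. In TPM its E18.5 groups overlapped, with 15.26, 13.58, 16.91 and 17.38 in ff libraries 7, 8, 17 and 18 and 13.62, 16.58, 14.66 and 17.61 in libraries 2, 3, 12 and 13 labelled dcKO. In counts they did not: ff libraries lay between 12.2 and 13.9 CPM and libraries labelled dcKO between 10.7 and 11.5 CPM. How many of all genes lay apart in this way in CPM was not computed. The count difference was -0.23 on the log2 scale (SE 0.08, 95% interval -0.40 to -0.057, edgeR adjusted p = 0.0428), and the exact permutation test of log2(TPM + 1) gave p = 0.886. The count call was lost in 12 of 22 alternatives, among them upper quartile scaling (adjusted p = 0.0728), sex as a covariate (0.057) and 6 of the 8 fits that left out 1 library (up to 0.092), all in edgeR. Scaling on pan-neuronal genes turned it to 0.24 (edgeR adjusted p = 0.0222). At E12.5 dcKO libraries 2, 6 and 10 held 39.62, 36.93 and 35.78 TPM and ff libraries 4, 7 and 9 held 36.67, 26.75 and 15.78 TPM, the lowest being the shallow library. Both E12.5 groups (dcKO 37.4 ± 1.97, ff 26.4 ± 10.4 TPM) had higher means than E18.5 ff (15.8 ± 1.73) and labelled dcKO (15.6 ± 1.81), although ff library 9 lay among the E18.5 values. Tmem163 shares exon sequence on opposite strands with Mgat5, which averaged 99.1 CPM at E18.5 and did not pass the test there (log2 difference -0.03, edgeR adjusted p = 0.72).

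Lpar1 (ENSMUSG00000038668.15) encodes a receptor for lysophosphatidic acid that is found on ventricular zone progenitors and oligodendrocytes as well as subplate neurons. Its E18.5 values were 10.53, 11.72, 8.32 and 13.97 TPM in ff libraries 7, 8, 17 and 18 and 13.41, 15.48, 15.46 and 20.94 TPM in libraries 2, 3, 12 and 13 labelled dcKO. In TPM the highest ff library, 18, lay above the lowest library labelled dcKO, 2, and in CPM the groups did not overlap. Over all genes tested 23.1% were higher without overlap in TPM, and the share in CPM was not computed. In counts the gene rose from 18.3 ± 2.66 to 24.5 ± 2.17 CPM (SD, n = 4 each), a log2 difference of 0.43 (SE 0.10, 95% interval 0.21 to 0.64, edgeR adjusted p = 0.00648). The exact permutation test of log2(TPM + 1) gave p = 0.0571. At E12.5 it stood at 22.47, 24.07 and 13.98 TPM in ff libraries 4, 7 and 9 and at 18.24, 19.10 and 17.64 TPM in dcKO libraries 2, 6 and 10. The means ran from E12.5 ff (20.2 ± 5.42 TPM) through E12.5 dcKO (18.3 ± 0.73) and E18.5 labelled dcKO (16.3 ± 3.23) to E18.5 ff (11.1 ± 2.36), and each group overlapped its neighbour in that order. At E18.5, 9 radial glia markers summed to 2186 to 2298 TPM in ff and 2349 to 2611 TPM in libraries labelled dcKO, 6 of 9 higher and 1 lower in edgeR, with none at 0. The 7 oligodendrocyte lineage markers summed to 126 to 136 and 123 to 137 TPM, 1 higher and 3 lower, where 15.6% of all genes tested were higher and 16.6% lower. The part of either in the Lpar1 difference was not tested.

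Cplx3 (ENSMUSG00000039714.10) encodes complexin 3, which regulates synaptic vesicle release and is a selective marker of mature subplate neurons. It was barely present: 23, 13, 11 and 9 counts in E18.5 ff libraries 7, 8, 17 and 18, and 0, 2, 3 and 3 counts in libraries 2, 3, 12 and 13 labelled dcKO. The ff libraries were all higher in CPM, for which no share of all genes was computed. The gene was removed by the filter on low counts, so it is not in that fit. The authors' deposited DESeq2 table gives it a log2 fold change of -0.18 (SE 0.34) with an adjusted p of 0.0249 at E18.5. That fold change is smaller than its SE, so it is not the estimate behind the p. Its size is not comparable with the edgeR value that follows. Without that filter the fitted log2 difference was -2.26 (SE 0.65, edgeR adjusted p = 0.0177, in a fit of 30565 genes of which 16.7% passed). At E12.5 the counts were 4, 1 and 0 in ff libraries 4, 7 and 9 and 11, 11 and 15 in dcKO libraries 2, 6 and 10. The 0 in the shallow ff library allows up to 0.620 CPM and the 0 in the shallow E18.5 library up to 0.480 CPM (3 counts, counting error only), above the mean of every group. In TPM the groups ran E12.5 dcKO (0.41 ± 0.18), E18.5 ff (0.25 ± 0.093), E18.5 labelled dcKO (0.10 ± 0.082) and E12.5 ff (0.043 ± 0.045), with overlap between each pair of neighbours.

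The E12.5 comparison asked whether the markers already differed in the telencephalon. None of the 8 passed the test in edgeR, where 0.19% of 17853 genes did. At an unadjusted p under 0.05 there were 2, Tmem163 and Cplx3, both higher in dcKO, beside 3433 of the 17853 genes. The DESeq2 Wald test called Tmem163 alone (adjusted p = 0.0121), beside 6.77% of all genes, and limma-voom called no marker, beside 0.695%. In 1 edgeR fit of all 14 libraries 2 markers passed at E12.5, both higher, beside 5.58% of 19327 genes. Tmem163 was higher in CPM in all 3 dcKO libraries, 32.7 ± 1.14 against 24.1 ± 3.02 CPM (SD, n = 3 each), with a log2 difference of 0.42 (SE 0.10, 95% interval 0.20 to 0.64, edgeR adjusted p = 0.0861). For that lack of overlap in CPM the share of all genes was not computed. The authors' deposited table, made with DESeq2, gives Tmem163 a log2 fold change of 0.34 with an adjusted p of 0.0142. Cplx3 had a fitted log2 difference of 2.58 (SE 0.69, edgeR adjusted p = 0.109) on at most 15 counts a library, and was the 1 marker whose TPM groups did not overlap. It passed the filter on low counts through the dcKO libraries alone. Over all genes tested 10.1% were higher in dcKO without overlap. The intervals of the others were -0.16 to 0.79 for Nr4a2, -0.55 to 0.52 for Nfe2l3, -0.21 to 0.81 for Hs3st4, -0.098 to 0.24 for Nxph4, -0.14 to 0.58 for Ccn2 and -0.42 to 0.19 for Lpar1 on the log2 scale. Those of Nr4a2, Nfe2l3 and Hs3st4 leave out a fall as large as the one each showed at E18.5. The median over the markers was 0.26 and over all genes 0.01. In a permutation test 3 libraries against 3 cannot go below p = 0.1.

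**Figure D2:**
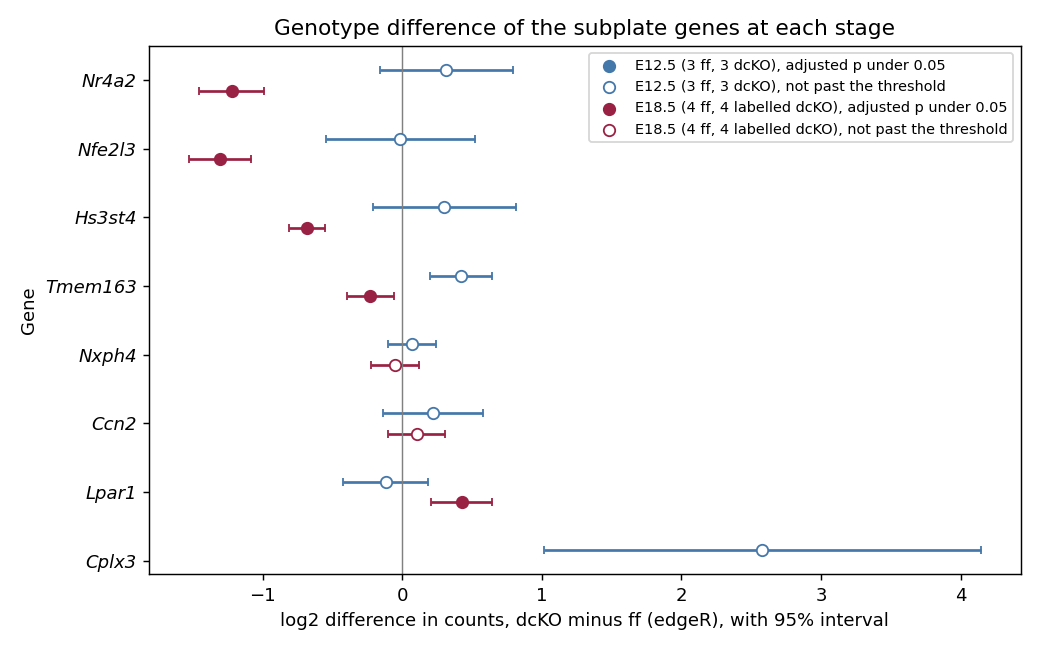
Log2 difference in counts between dcKO and ff for each marker (edgeR, points) with its 95% interval, at E12.5 (blue, 3 libraries a group) and E18.5 (red, 4 a group), filled where the adjusted p is under 0.05. At E18.5 Nfe2l3, Nr4a2 and Hs3st4 lie at -1.31, -1.22 and -0.68, and at E12.5 no marker is filled.

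Between the stages the markers split. Stage goes with tissue (telencephalon or cortex) and with the table of origin, and these cannot be told apart. In ff, Hs3st4, Nfe2l3, Cplx3, Nr4a2 and Ccn2 were higher in E18.5 cortex and Nxph4, Lpar1 and Tmem163 lower, so that all 8 passed the edgeR test in a fit of all 14 libraries, where 61.4% of 19327 genes did, 31.5% higher and 29.9% lower. The widest differences were those of Hs3st4, 3.20 on the log2 scale (SE 0.15), and Nfe2l3, 2.65 (SE 0.17). Nr4a2 was higher by 1.38 (SE 0.18), Ccn2 by 0.88 (SE 0.13) and Cplx3 by 2.52 (SE 0.65, edgeR adjusted p = 0.00303, on few counts). Cplx3 entered that fit only through E12.5 dcKO and E18.5 ff, where its counts were highest. Its place among the 8 is therefore a description. Nxph4 was at -1.35 (SE 0.07), Lpar1 at -0.96 (SE 0.13) and Tmem163 at -0.87 (SE 0.08). Summed over the 8 genes the ff level went from 112 ± 20.02 TPM (SD, n = 3) to 147 ± 4.57 TPM (SD, n = 4). Nr4a2 and Hs3st4 made up 28.2% and 24.3% of that sum at E18.5, after 13.9% and 4.02% at E12.5. Nxph4 went from 33.4% to 9.96%.

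In dcKO, 7 of 8 markers passed the same test between stages, 3 higher and 4 lower, beside 62.2% of all genes (30.9% higher, 31.3% lower). Hs3st4 was higher by 2.08 (SE 0.13), Nfe2l3 by 1.30 (SE 0.15) and Ccn2 by 0.73 (SE 0.12). Tmem163 was at -1.56 (SE 0.08), Nxph4 at -1.51 (SE 0.07), Lpar1 at -0.45 (SE 0.13, edgeR adjusted p = 0.00529) and Cplx3 at -2.33 (SE 0.58, edgeR adjusted p = 0.00239). As in ff, the Cplx3 call is a description, because the gene passed the filter only through the groups where it was highest. Nr4a2, higher by 1.38 in ff, was the marker that did not pass in dcKO (-0.20, SE 0.17, 95% interval -0.57 to 0.17, edgeR adjusted p = 0.324). The sum over the 8 genes was 127 ± 3.78 TPM at E12.5 (SD, n = 3) and 111 ± 7.88 TPM in the E18.5 libraries labelled dcKO (SD, n = 4), which overlapped neither the E12.5 dcKO sums nor the E18.5 ff sums.

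**Figure D3:**
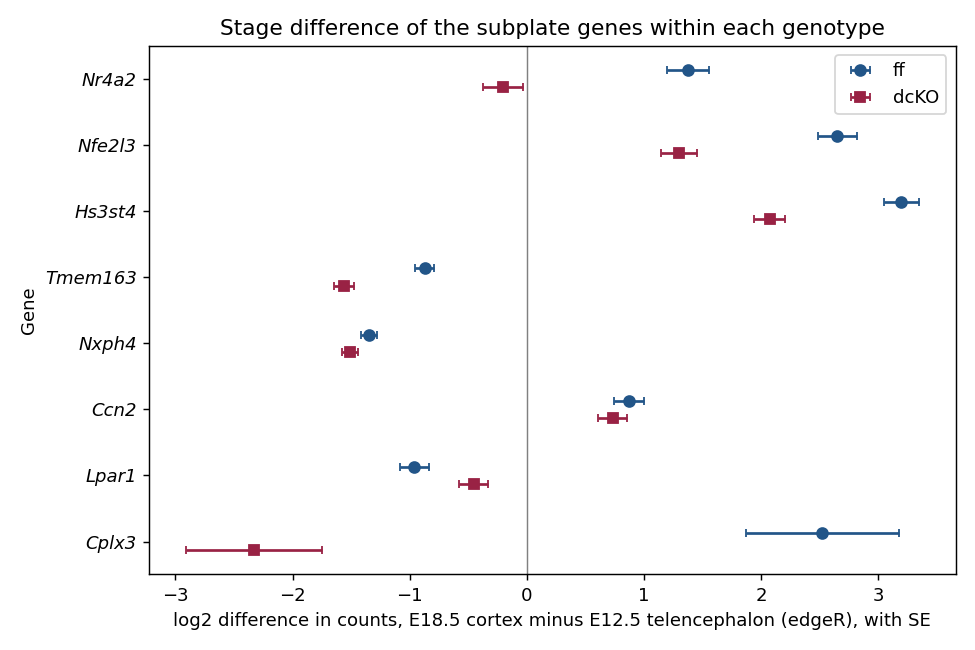
Log2 difference in counts between E18.5 cortex and E12.5 telencephalon for each marker, in ff (blue circles) and dcKO (red squares), with the SE (edgeR, 1 fit of 14 libraries). The 2 genotypes lie close together for Nxph4 and Ccn2, and Nr4a2 and Cplx3 lie above 0 in ff and below 0 in dcKO.

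Whether the genotype difference itself changed with stage was tested as an interaction in that fit. It passed for 5 of 8 markers, all more negative at E18.5, where 16.5% of 19327 genes passed and 9.41% in that direction. Nr4a2 differed by -1.58 (SE 0.25, edgeR adjusted p = 0.00142), Nfe2l3 by -1.35 (SE 0.22, adjusted p = 0.000975) and Hs3st4 by -1.12 (SE 0.19, adjusted p = 0.0014). Tmem163 differed by -0.69 (SE 0.12, edgeR adjusted p = 0.00152), with a positive difference at E12.5 and a negative one at E18.5. Cplx3 differed by -4.85 (SE 0.87, edgeR adjusted p = 0.00212), a fitted value on 0 to 23 counts a library. It passed the filter of that fit only through E12.5 dcKO and E18.5 ff, where its counts were highest. Its calls in that fit, here and between stages, are therefore a description. Nxph4 (-0.16, 95% interval -0.37 to 0.051) and Ccn2 (-0.14, 95% interval -0.51 to 0.23) did not pass (edgeR adjusted p = 0.294 and 0.853). Lpar1, at 0.51 (SE 0.18, edgeR adjusted p = 0.0666), passed in 7 of 22 alternatives, among them without the shallow E12.5 ff library 9 (0.63, adjusted p = 0.0132) and without E18.5 ff library 18 (0.60, adjusted p = 0.0293). The genotype, stage and interaction comparisons share libraries, and their values are set side by side only.

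Ratios within a library do not depend on how libraries are scaled to each other. Against Nxph4, the marker with the smallest genotype difference in counts at E18.5, Nr4a2 stood at 2.25 to 3.24 (ratio of TPM) in E18.5 ff and 1.09 to 1.48 in libraries labelled dcKO. Hs3st4 stood at 2.21 to 2.63 and 1.51 to 1.66, and Nfe2l3 at 1.01 to 1.17 and 0.411 to 0.596. None of these 3 ranges overlapped. The 3 genes were already apart in TPM, and Nxph4 was picked for its small difference in the same libraries. These ratios therefore only describe that the markers changed unequally within the libraries. The Lpar1 ratio was 0.598 to 0.905 in ff and 0.956 to 1.27 in libraries labelled dcKO, again without overlap and in the other direction. The ratios of Ccn2 (0.738 to 0.886 and 0.831 to 0.962) and Tmem163 (0.902 to 1.21 and 0.950 to 1.12) overlapped. A ratio of this kind shows unequal change, not that Nxph4 itself was unchanged. The share of all genes whose ratio to Nxph4 did not overlap was not computed.

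**Figure D4:**
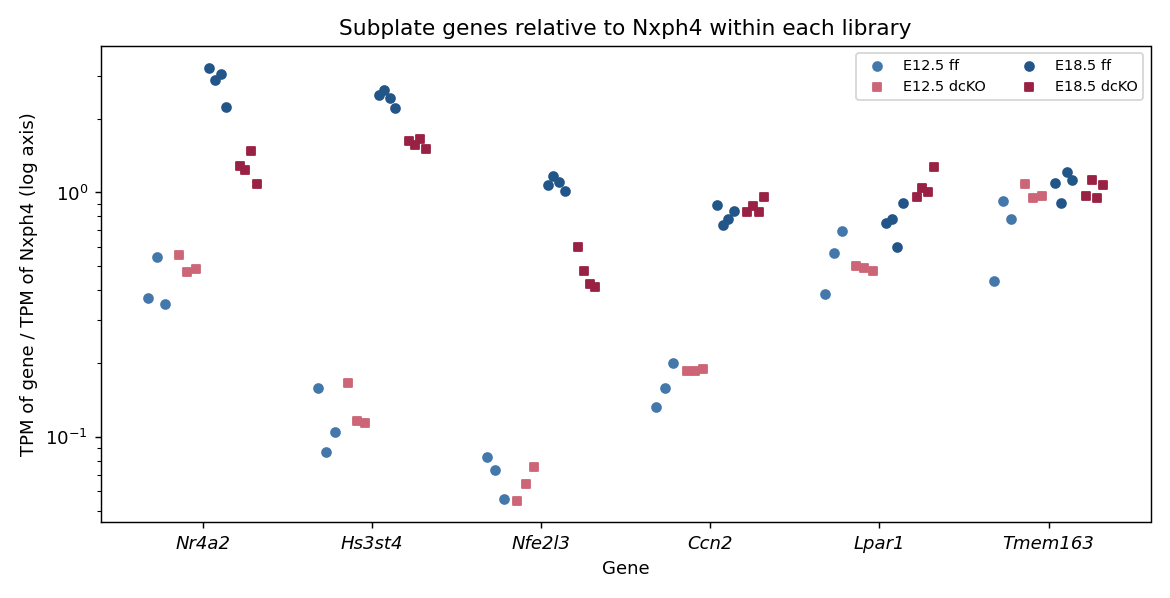
TPM of 6 markers divided by the TPM of Nxph4 in the same library, on a log axis, 1 point per library. In E18.5 libraries labelled dcKO (dark red) Nr4a2, Hs3st4 and Nfe2l3 lie below the ff libraries (dark blue) and Lpar1 above them, and Ccn2 and Tmem163 overlap.

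The pan-neuronal genes, 10 transcripts such as Stmn2 and Tubb3 that most neurons hold, were measured in the same libraries. At E18.5 all 10 were lower in libraries labelled dcKO (edgeR), beside 16.6% of all genes tested, with a median log2 difference of -0.36. Their summed level was 7619 to 7941 TPM in ff and 5401 to 6072 TPM in libraries labelled dcKO. When libraries were scaled on these 10 genes instead, the median over all genes moved to 0.50, Nr4a2 stood at -0.76 (edgeR adjusted p = 9.07e-06), Nfe2l3 at -0.83 (adjusted p = 4.55e-05) and Hs3st4 at -0.21 (adjusted p = 0.00653). On that scale 3 markers were lower and 4 higher, where 75.9% of 17974 genes passed: Lpar1 stood at 0.89, Ccn2 at 0.57, Nxph4 at 0.42 and Tmem163 at 0.24. The differences of Nr4a2 and Nfe2l3 relative to the pan-neuronal genes were larger than that of Hs3st4, and the directions of Nxph4 and Tmem163 depended on the scale.

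A second list held 14 other genes reported in subplate and layer 6b. At E18.5, 6 of 14 were lower and none higher in edgeR, with a median log2 difference of -0.28. Over all genes tested 16.6% were lower and 15.6% higher. The 4 with the lowest p were Sv2b, a synaptic vesicle protein (20.3 to 13.7 TPM in group means, log2 difference -0.67, SE 0.07), Pls3, an actin bundler (-0.35, SE 0.06), Gabra5, a GABA-A receptor subunit (-0.41, SE 0.07), and Chrna5, a nicotinic receptor subunit (3.40 to 1.59 TPM, -1.21, SE 0.24). The other 8 did not pass. At E12.5 the lowest adjusted p among the 13 tested was 0.187 (edgeR, Ngfr, named after its value was seen). In ff 12 of 14 were higher in E18.5 cortex and 2 lower, beside 31.5% and 29.9% of all genes. The interaction passed for 5 of 14, all more negative at E18.5, where 16.5% of all genes passed and 9.41% in that direction.

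Transcription factors of layer 6 and subplate, with corticothalamic genes, were measured the same way. Of these 10 genes, 8 were lower and 2 higher at E18.5 in edgeR (median -0.44), beside 16.6% and 15.6% of all genes tested. Crym, a thyroid hormone binding protein, was at -1.44 (SE 0.10), Ntsr1, the neurotensin receptor of corticothalamic neurons, at -1.01 (SE 0.08) and Sox5, a regulator of deep-layer fate, at -0.62 (SE 0.08). Foxp2, a layer 6 transcription factor, rose by 0.66 (SE 0.09). The other riser was Syt6 at 0.42, named after its value was seen. At E12.5 none of the subplate markers had passed, and 2 genes of this list had, beside 0.19% of all genes tested. Also named after their values were seen, they were Tbr1 at -0.79 (edgeR adjusted p = 0.0474) and Fezf2 at -0.57 (adjusted p = 0.0468). The difference between the lists was not tested. As a ratio of TPM to Tbr1, a gene of this list, Nr4a2 stood at 0.317 to 0.480 in E18.5 ff and 0.193 to 0.273 in libraries labelled dcKO. Nfe2l3 stood at 0.142 to 0.162 and 0.0730 to 0.125. Both were without overlap, as in TPM, and the share of all genes was not computed. The Hs3st4 ratio overlapped, at 0.312 to 0.371 and 0.268 to 0.340. The Nxph4 ratio was higher in libraries labelled dcKO, at 0.178 to 0.210 against 0.122 to 0.148. Tbr1 itself was lower there at E18.5 (-0.51, SE 0.10, edgeR adjusted p = 0.00233), so ratios to it show unequal change only. Of 5 layer 5 genes 2 were lower and 1 higher (median -0.09), and of 9 upper-layer genes 5 were lower and 1 higher (median -0.29).

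**Figure D5:**
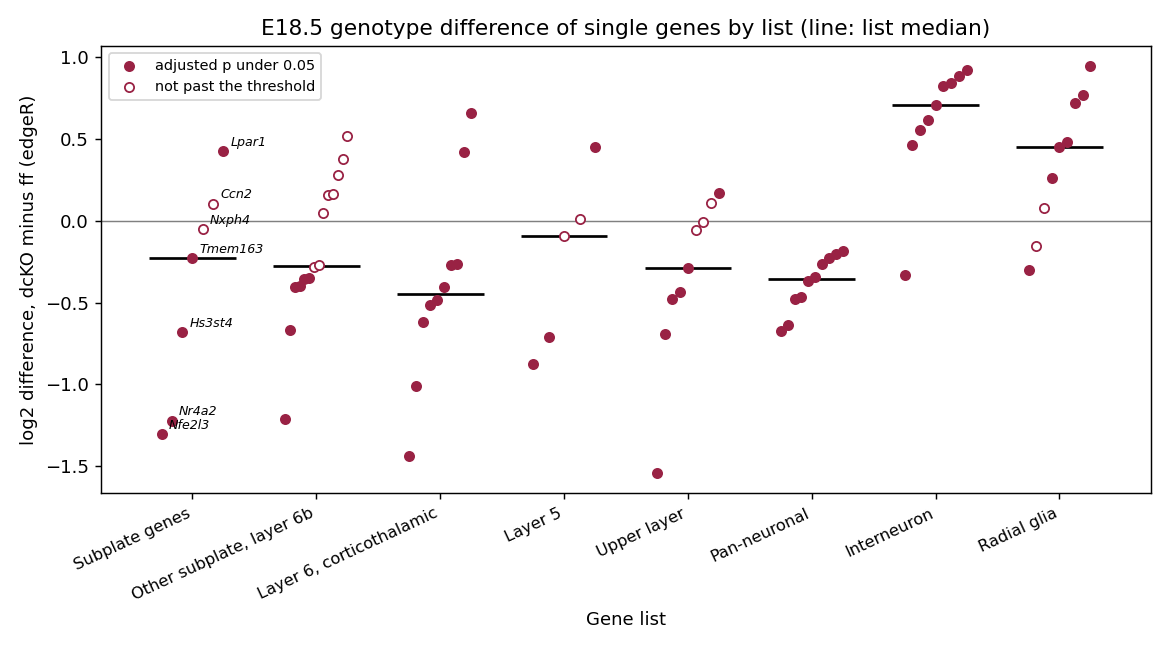
Log2 difference at E18.5 (libraries labelled dcKO minus ff, edgeR) of each gene in 8 lists, filled where the adjusted p is under 0.05, with the list median as a line. The subplate markers span -1.31 to 0.43, and the medians run from -0.44 (layer 6 and subplate transcription factors with corticothalamic genes) to 0.71 (interneuron).

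The paralogues of the markers were measured next. Of 24 tested at E18.5, 6 were lower and 3 higher in edgeR (median -0.03), beside 32.2% of all genes called, and members of 1 family often had different values. Nr4a3, a sister receptor of Nr4a2, fell by 1.23 on the log2 scale (SE 0.06), from 30.8 to 14.6 TPM in group means, whereas Nr4a1 was at -0.13 (SE 0.12, edgeR adjusted p = 0.433). Nxph3, a neurexophilin also placed in layer 6b, fell by 1.11 (SE 0.10), while Nxph1 (0.51, SE 0.08) and Nxph2 (0.55, SE 0.10) rose and Nxph4 did not pass. Among sulfotransferases Hs3st2 fell by 0.82 (SE 0.12), and Hs3st1 (-0.05) and Hs3st5 (-0.14) did not pass. Of the complexins Cplx1 fell by 0.57 (SE 0.10) and Cplx2 by 0.40 (SE 0.07). Of the lysophosphatidic acid receptors Lpar2 fell by 0.48 (SE 0.07) as Lpar1 rose, and Nfe2l1 (-0.04) and Nfe2l2 (0.12), relatives of Nfe2l3, did not pass. Ccn1, like Ccn2 a YAP and TEAD target, rose by 0.79 (SE 0.10). With Ajuba (0.79, SE 0.11) it made 2 of 4 tested YAP and TEAD targets that rose, beside 15.6% of all genes tested.

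Nr4a2 and Lpar1 are also transcripts of other cells that a cortical dissection may hold. Midbrain dopamine markers, which share Nr4a2, summed to 1.74 to 2.58 TPM in E18.5 ff and 3.30 to 4.12 TPM in libraries labelled dcKO. Of the 3 tested at E18.5, Th was higher (edgeR adjusted p = 0.0443). At E12.5 the list stood higher, at 8.08 to 16.88 TPM in ff and 15.45 to 17.34 TPM in dcKO. The part of such cells in the E12.5 level of Nr4a2, and so in its stage and interaction values, was not tested. The claustrum list of 3 genes, whose cells hold Nr4a2, had 1 higher (Synpr, 0.52) and 1 lower (Gnb4, -0.35). The hippocampal list had 3 of 5 higher and none lower. Immediate-early genes, the class to which Nr4a receptors belong in many cells, summed to 19.3 to 26.2 TPM in ff and 31.5 to 52.9 TPM in libraries labelled dcKO, with 4 of 7 higher and none lower. The diencephalic list summed to 16.1 to 20.6 and 25.7 to 30.0 TPM (4 of 5 higher), the interneuron list to 938 to 1017 and 1334 to 1464 TPM (8 of 9 higher, 1 lower) and the Cajal-Retzius list to 126 to 160 and 164 to 201 TPM (5 of 6 higher, 1 lower). Meningeal markers summed to 161 to 316 and 257 to 376 TPM, and the lowest adjusted p among the 5 was 0.322 (edgeR, Dcn). Over all genes tested at E18.5, 15.6% were higher and 16.6% lower. No gene of these lists was at 0 in every library of an E18.5 group. The part of these cells in the marker differences was not tested, and the choroid plexus list stood at 8.21 TPM in library 12 labelled dcKO and at 1449 TPM or more in the ff libraries. Without libraries 2 and 12 labelled dcKO, 5 markers passed, beside 26% of 18691 genes tested. Nr4a2 stood at -1.29, Nfe2l3 at -1.37 and Hs3st4 at -0.69. Tmem163 (edgeR adjusted p = 0.0656) was no longer among the 5. Cplx3 was, having entered that fit through the ff libraries where it was higher, so the markers called were not the same. Within male libraries alone Nr4a2, Nfe2l3 and Hs3st4 were at -1.36, -1.29 and -0.70.

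Among 13338 protein-coding genes the ones whose centred log2 CPM followed each marker most closely over the 14 libraries were found by root mean square difference. For Nr4a2 they were Sema3c (0.24) and Tubb4a (0.25), for Nfe2l3 Kctd4 (0.21) and Nwd2 (0.24), and for Hs3st4 Tafa2 (0.16) and Mpv17l (0.18). At E18.5 Sema3c stood at -1.36, Tubb4a at -0.74, Kctd4 at -1.23, Nwd2 at -1.29, Tafa2 at -0.44 and Mpv17l at -0.43 on the log2 scale between genotypes. These genes were picked for following the markers over the same libraries, so their differences are a description. Those of Lpar1 were Zfp395 (0.089) and Antxr1 (0.097), and those of Nxph4 Golm1 (0.099) and Cdk4 (0.10). Those of Tmem163 were Glipr2 (0.13) and Vav3 (0.14), and those of Ccn2 Psen2 (0.10) and Tmem100 (0.12). No gene was listed for more than 1 marker. Cplx3 was left out because it was not tested at both stages.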

How the data were processed

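RNA was isolated with RNeasy columns and made into stranded, poly(A)-selected libraries, per the labels' protocols. The submitters' processing notes name Trim Galore, STAR, RSEM and DESeq2 without versions; genome build, annotation and counting strand are not given in the sources used here. The authors deposited RSEM expected count values and RSEM TPM values, 1 column per library. Their DESeq2 tables give log2 fold changes and p-values per the file headers, with no statement on shrinkage. For Cplx3 the deposited fold changes are smaller than their SE although the unadjusted p is under 0.05. The deposited fold changes are therefore not set against those of edgeR in size.

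Columns were assigned to groups by the genotype in their names and the stage of the table. In 11 of 14 samples the description names a column of another genotype or stage than the title (another genotype in 8, another stage in 6), so no column was tied to 1 sample. Columns named dfl were read as ff.

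After rounding, expected counts went into edgeR 4.0.16 (R 4.3.3): filterByExpr, TMM scaling, the robust quasi-likelihood F test, Benjamini-Hochberg adjustment over all genes tested and a two-sided threshold of 0.05. Genotype was tested in 1 fit per stage, stage and interaction in 1 fit of all 14 libraries. CPM are TMM-scaled within a stage. SE is the log2 difference divided by the square root of F. The exact permutation tests are two-sided. The steps were tested on simulated data. Among the 18 library pairs within a group, no 2 libraries agreed within sampling noise (chi-square over degrees of freedom at least 4.00). The 4.00 was that of E12.5 dcKO libraries 6 and 10, and the second lowest value was 16.6. Those 2 libraries were thus far more alike than any other pair, and the labels do not say why.

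Genes named were the 8 markers, their paralogues, Sbno1, Trp53 and Emx1, up to 4 genes of lowest E18.5 p in each list and the 2 closest followers of each marker; others are said to be named after their values were seen. Markers and lists were chosen with earlier results of these data known. The alternatives tried were upper quartile scaling, size factors of DESeq2 1.42.0 and its Wald test, limma-voom (limma 3.58.1), no filter, sex as a covariate, a length and GC correction (splines with 5 degrees of freedom, GENCODE M21), scaling on pan-neuronal genes, 1 fit of 14 libraries, log2(TPM + 1) and log2(TPM + 0.1), shallow libraries left out and each library left out. Leaving out libraries 2 and 12 labelled dcKO, and males alone, were added after the data were seen.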

Additional observations from a re-analysis of the deposited data

Results flagged for a closer look

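The interaction of genotype and stage was past the threshold for 5 markers, whose genotype difference at E18.5 was below that at E12.5 by an interaction test in 1 edgeR fit of all 14 libraries. The gap was -4.85 for Cplx3, -1.58 for Nr4a2, -1.35 for Nfe2l3, -1.12 for Hs3st4 and -0.69 for Tmem163 on the log2 scale. The Cplx3 value rests on 0 to 23 counts a library, and the gene passed the count filter only through the groups where it was highest.

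Single libraries stood away from their group in 2 of 16 sets of 4 E18.5 values (8 markers, 2 groups), where chance gives about 1 in 20. Cplx3 was at 0.11 TPM in ff library 18, and the other ff libraries were at 0.28 to 0.31 TPM. In counts that library held 9, against 11, 13 and 23, and in CPM 0.169, against 0.166, 0.205 and 0.397, so it did not stand apart there. Nr4a2 was at 22.88 TPM in library 12 labelled dcKO, the library with almost no Ttr, and the other 3 were at 17.83 to 18.24 TPM.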

How the results depend on the processing

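Nr4a2, Nfe2l3 and Hs3st4 at E18.5 kept direction and call in 22 of 22 alternatives, over -1.36 to -0.76, -1.39 to -0.83 and -0.75 to -0.21. The TPM tests among these could not fail for the 3, whose TPM groups did not overlap. The number of markers called at E18.5 was 5 as reported (32.2% of all genes tested) and 3 with either TPM test (share not computed). It was 7 with scaling on pan-neuronal genes (75.9%) and 4 to 5 with 1 library left out (24.2% to 31.3%). In 1 fit of 14 libraries 1 was higher and 5 lower (26.7%). With no filter 1 was higher and 4 lower (16.7%), with Cplx3 called and Tmem163 not. At E12.5 the number was 0 as reported (0.19%), 1 with the DESeq2 Wald test (6.77%) and 2 with 1 fit of 14 libraries (5.58%). With any library left out it was 0 (0% to 3.12%). With 1 library left out it stayed at 8 between stages in ff (53.2% to 63.8%) and at 7 in dcKO (52.6% to 63.8%). For the interaction it was then 5 to 6 (8.37% to 17.2%). These counts include Cplx3, whose calls in that fit are a description. Scaling on pan-neuronal genes turned Nxph4 to 0.42 and Tmem163 to 0.24 at E18.5, and the TPM tests turned Nxph4 to 0.050 and 0.052. At E12.5 the length and GC correction turned Nxph4 to -0.12. Nfe2l3 there, near 0, turned to 0.036 with upper quartile scaling, 0.043 in limma-voom, 0.017 in 1 fit of 14 libraries and 0.10 without shallow libraries, and ranged from -0.20 to 0.11 with 1 library left out. The cause was not tested. Over all genes, calls at E12.5 were 34 as reported, 1209 in DESeq2, 1079 in 1 fit of 14 libraries, 571 without dcKO library 2 and 0 without dcKO library 6 or 10. At E18.5 they were 5779 as reported and 13647 scaled on pan-neuronal genes, and for the interaction 3195 as reported, 1733 without E12.5 dcKO library 6 and 1690 without library 10. Depth limits Cplx3, at 0 to 23 counts in any library and at 0 in the shallow E12.5 ff library 9 and E18.5 library 2. No paired analysis was possible because no column could be tied to 1 sample and no library number in the column names is shared by the 2 genotypes of a stage.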
